A study of Hydra vulgaris with 5 samples.

Results

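Genes of the actomyosin machinery were followed through dissociated cells of Hydra vulgaris, strain 105, a small freshwater cnidarian. An entry is 1 named line of the deposited count tables, and 134 of 46156 entries were members. A member's description began with actin, myosin, tropomyosin, troponin, calponin, filamin, alpha-actinin, cofilin, profilin, gelsolin, transgelin or titin, or held a myosin heavy chain, myosin light chain, regulatory myosin or myophilin term. The rule uses names only, but it was chosen with earlier results of these data known. The members carry 130 identifiers, 4 of which occur with more than 1 description, and none had the same counts as another entry in every barcode.

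The study cut polyps across the body and dissociated tissue regenerating a hypostome, the cone around the mouth, at 0, 4 and 12 h, with 1 library per time. It also dissociated hypostome tissue, with 2 libraries. All 5 libraries came from the same strain, with no other treatment named, and 3′ transcript ends were counted per cell barcode on the SureCell droplet system. The labels do not say how many animals went into a library or whether the 2 hypostome libraries came from separate polyps, so their spread may be technical. Hydra has no separate muscle tissue. Epitheliomuscular cells line both body layers and carry contractile processes at their base, along the body axis in the outer layer and around it in the inner layer. Actin filaments and class II myosin, a motor of 2 heavy chains with light chains, produce the force, while calponin-type, tropomyosin and cross-linking proteins bind the filaments. The same proteins serve cell shape, division and wound closure in every animal cell, so the names alone do not assign an entry to muscle processes. No sequence is shown, because no file used here holds one for these entries.

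Levels are given in CPM, the counts of an entry scaled to the total of its library, over barcodes with at least 200 detected entries, with 1 entry, MSTRG.22171, left out of every total because its share ran from 4.63% of counts at 12 h to 35.6% at 4 h. The used barcodes numbered 110 and 168 in the first and second hypostome library, 2332 and 2782 in the 0 h and 4 h libraries, and 64 in the 12 h one. They held 129433, 213647, 1209613, 1605812 and 52713 counts in that order. They are a small part of some libraries: 5.91% of all counts at 12 h, 37.7% and 27.7% in the hypostome libraries, and 88.3% and 92.0% at 0 and 4 h. A count of 3 equals 56.9 CPM at 12 h and 1.87 CPM at 4 h, so a member with no count at 12 h can still have been present at a low level. Barcodes are numbered rather than spelled out in the tables, so barcodes shared between libraries could not be counted. Within a library, fewer cells of a type and less RNA per cell cannot be told apart.

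The members together took 1.24% of counts in hypostome 1 (95% exact interval 1.18 to 1.30%), 1.29% in hypostome 2 (1.24 to 1.34%), 1.85% at 0 h (1.82 to 1.87%), 1.49% at 4 h (1.47 to 1.51%) and 0.378% at 12 h (0.327 to 0.434%). The 0 h library was highest, the hypostome libraries lay close to each other, and the 12 h library was lowest. These intervals cover counting error only and are too narrow if the counts are reads and not molecules. As summed levels, the hypostome libraries held 12672 ± 341 CPM (SD, n = 2), against 18488 CPM at 0 h, 14895 CPM at 4 h and 3775 CPM at 12 h. Over all deposited barcodes the hypostome level was 16699 ± 411 CPM (SD, n = 2), beside 18430 CPM at 0 h, 14860 CPM at 4 h and 2642 CPM at 12 h. The gap between hypostome and 0 h was thus smaller when shallow barcodes were included, while the 12 h library stayed lowest.

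One actin entry carried about as much as all other members combined. Sc4wPfr_135.g21780, named actin, the filament subunit itself, stood at 5215 and 5832 CPM in the hypostome libraries, 9406 CPM at 0 h, 7474 CPM at 4 h and 1537 CPM at 12 h. Its share of member counts was 42.0% and 45.2% in hypostome, then 50.9% and 50.2% for 0 h and 4 h, and 40.7% for 12 h. The other 5 entries of the actin role were far sparser. Of these, Sc4wPfr_1007.g33079 had 124 and 42.1 CPM in hypostome but 2.48 CPM at 0 h, 10.6 CPM at 4 h and no count at 12 h. Sc4wPfr_1275.1.g32930 had no count in hypostome 1, 60.8 CPM in hypostome 2, 42.2 CPM at 0 h and 41.1 CPM at 4 h. With the actin role left out, the summed members were at 7085 and 6955 CPM in hypostome, 9014 CPM at 0 h, 7353 CPM at 4 h and 2239 CPM at 12 h. The 0 h library was again highest and 12 h lowest, and 4 h came close to hypostome.

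**Figure D1:**
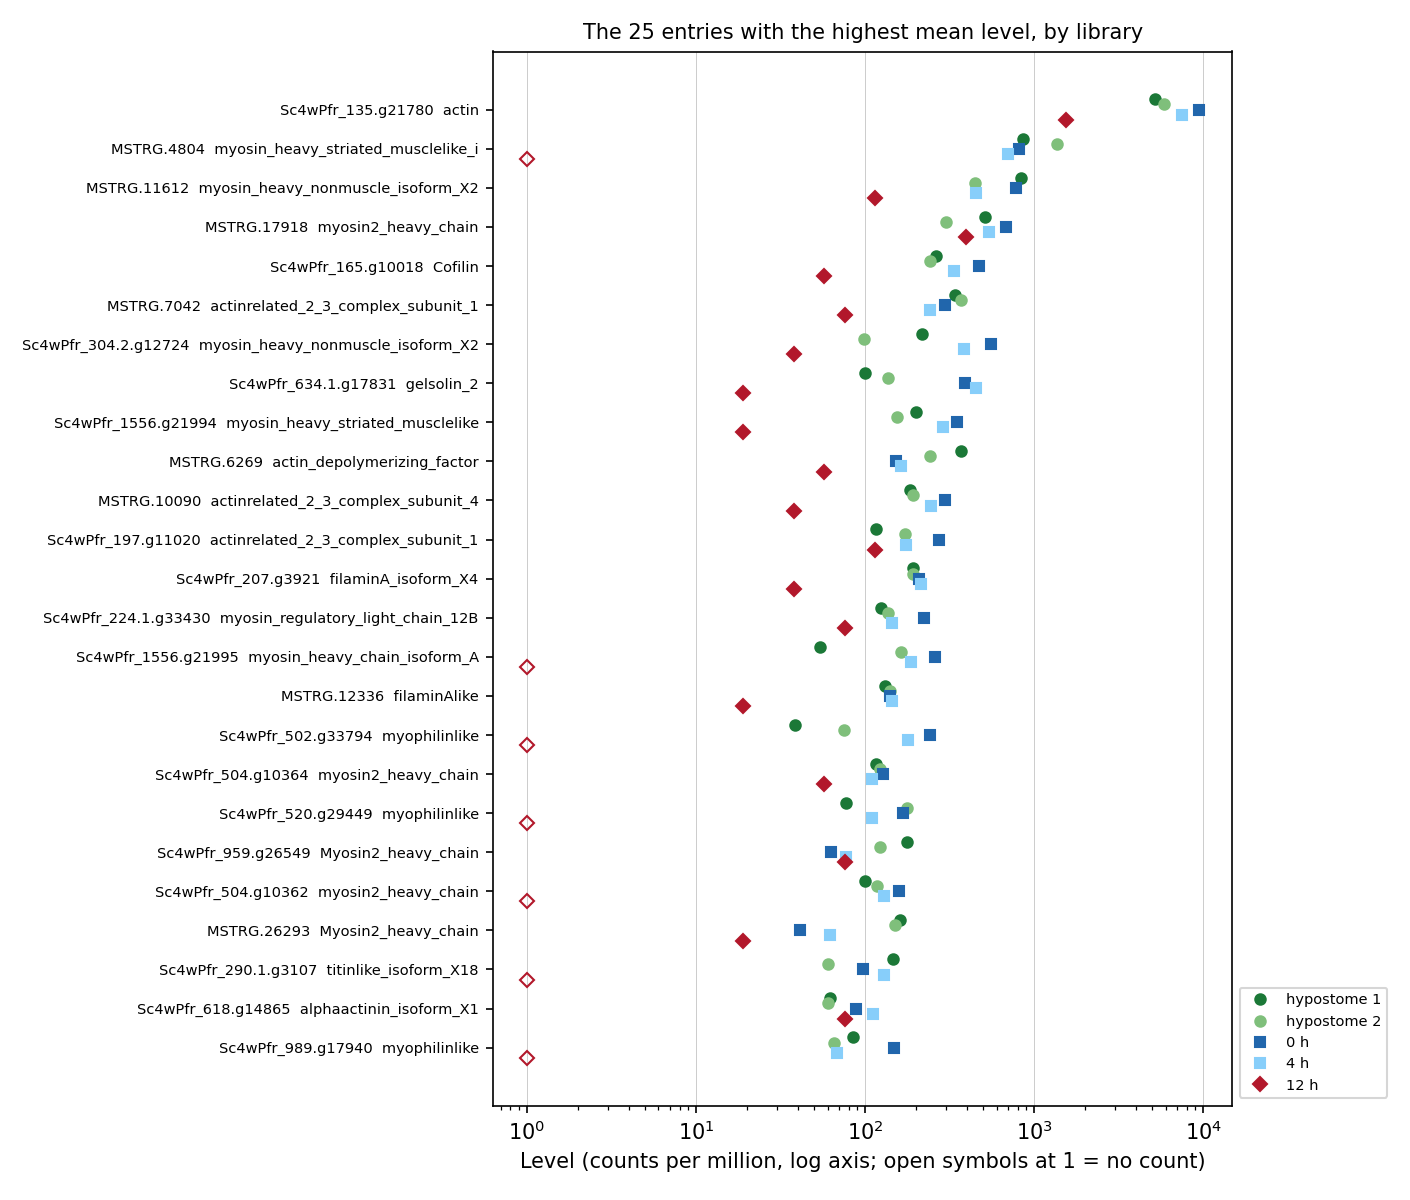
Level (CPM, log axis) of the 25 members with the highest mean over the 5 libraries, 1 symbol per library, with open symbols at 1 marking no count. The actin entry Sc4wPfr_135.g21780 lies above all others in each library, and the 12 h symbols lie lowest for most entries.

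The class II heavy chains, the motor subunits, formed the next largest group. All 22 had at least 1 count, 10 were counted in all 5 libraries, and together they reached 3376 and 3258 CPM in hypostome, 4074 CPM at 0 h, 3126 CPM at 4 h and 1100 CPM at 12 h. MSTRG.4804, a striated-muscle-like heavy chain, stood at 865 and 1367 CPM in hypostome, 818 CPM at 0 h and 700 CPM at 4 h, with no count at 12 h. MSTRG.11612, named as a nonmuscle heavy chain, stood at 834 and 449 CPM in hypostome, 777 CPM at 0 h, 453 CPM at 4 h and 114 CPM at 12 h. The names striated and nonmuscle rest on sequence similarity and not on a structure seen in Hydra. Another entry, MSTRG.17918, named myosin-2 heavy chain, had 510 and 300 CPM in hypostome, 684 CPM at 0 h, 540 CPM at 4 h and 398 CPM at 12 h. In the used barcodes it kept the highest 12 h level of the heavy chains, but 15 of its 21 counts there fell in 2 barcodes. Over all barcodes it had 49.2 CPM at 12 h, below Sc4wPfr_96.g11988 at 122 CPM and Sc4wPfr_959.g26549 at 106 CPM. For MSTRG.11612 the hypostome libraries lay on both sides of 0 h and 4 h, and for MSTRG.17918 both lay below them.

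Several heavy chain entries have consecutive identifier numbers, and the files do not say whether these are separate genes or pieces of 1 gene. Sc4wPfr_1556.g21994, striated-muscle-like, had 201 and 154 CPM in hypostome, 351 CPM at 0 h, 290 CPM at 4 h and 19.0 CPM at 12 h. Its neighbour in number Sc4wPfr_1556.g21995, named isoform A, had 54.1 and 164 CPM in hypostome, 261 CPM at 0 h, 188 CPM at 4 h and no count at 12 h. Both were higher at 0 h and 4 h than in either hypostome library, and the order turned over all barcodes. Sc4wPfr_1556.g21994 then had 476 and 475 CPM in hypostome against 351 and 293 CPM, and Sc4wPfr_1556.g21995 had 352 and 405 CPM against 262 and 190 CPM. The nonmuscle entry Sc4wPfr_304.2.g12724 was also higher at 0 h and 4 h in the used barcodes, with 216 and 98.3 CPM in hypostome, 555 CPM at 0 h, 383 CPM at 4 h and 37.9 CPM at 12 h. Over all barcodes it had 437 and 391 CPM in hypostome, 559 CPM at 0 h and 389 CPM at 4 h, and the tissues overlapped. Counting could split reads among such near-identical entries, so levels of single heavy chains are uncertain.

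The opposite order was found in 2 further heavy chains. Sc4wPfr_959.g26549 had 178 and 122 CPM in hypostome, 62.8 CPM at 0 h, 77.2 CPM at 4 h and 75.9 CPM at 12 h. MSTRG.26293 had 162 and 150 CPM in hypostome, 41.3 CPM at 0 h, 62.3 CPM at 4 h and 19.0 CPM at 12 h. In both, each hypostome library lay above all 3 regenerating libraries. Over all barcodes this held for MSTRG.26293, while Sc4wPfr_959.g26549 had 157 and 101 CPM in hypostome and 106 CPM at 12 h. The heavy chain Sc4wPfr_504.g10364, with 110 to 127 CPM outside the 12 h library, differed little among those 4 libraries. Sc4wPfr_504.g10362 was lower in hypostome, at 100 and 117 CPM, than at 0 h, at 159 CPM, and at 4 h, at 130 CPM. Over all barcodes it had 78.3 and 67.1 CPM in hypostome, 144 CPM at 0 h and 123 CPM at 4 h.

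Light chains, which bind the neck of the heavy chain and through which contraction is regulated, had a count in 10 of 15 entries. The regulatory light chain Sc4wPfr_224.1.g33430 had 124 and 136 CPM in hypostome, 223 CPM at 0 h, 144 CPM at 4 h and 75.9 CPM at 12 h, so that 0 h was the highest library. Together the light chains were at 317 and 323 CPM in hypostome, 490 CPM at 0 h, 340 CPM at 4 h and 152 CPM at 12 h. Myosin light chain kinase MSTRG.11821, the enzyme that phosphorylates the regulatory light chain, had 46.4 and 42.1 CPM in hypostome, 39.7 CPM at 0 h, 18.1 CPM at 4 h and no count in the used barcodes at 12 h. Over all barcodes it had 65.2 and 42.3 CPM in hypostome, 36.0 CPM at 0 h, 17.4 CPM at 4 h and 70.9 CPM at 12 h.

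The calponin family, filament-binding proteins that include the myophilin-like entries, was higher at 0 h than in hypostome, and in the used barcodes at 4 h too. Its 10 entries, 9 with a count, summed to 301 and 417 CPM in hypostome, 836 CPM at 0 h and 588 CPM at 4 h, with no count of any of them at 12 h. Over all barcodes the sums were 708 and 780 CPM in hypostome, 870 CPM at 0 h and 591 CPM at 4 h, so that 4 h was then below hypostome. In the used barcodes, Sc4wPfr_502.g33794 had 38.6 and 74.9 CPM in hypostome, 242 CPM at 0 h and 180 CPM at 4 h. Sc4wPfr_73.g11543 had 7.73 and 23.4 CPM in hypostome, 186 CPM at 0 h and 139 CPM at 4 h. Other myophilin-like entries did not share that order: Sc4wPfr_520.g29449 had 77.3 and 178 CPM in hypostome, 167 CPM at 0 h and 110 CPM at 4 h. Sc4wPfr_989.g17940 had 85.0 and 65.5 CPM in hypostome, 148 CPM at 0 h and 68.5 CPM at 4 h. Hypostome and regenerating libraries therefore overlapped for the last 2 entries and not, 12 h aside, for the first 2.

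Proteins that cut, cap or recycle filaments varied in both directions. Gelsolin Sc4wPfr_634.1.g17831, of a family that severs filaments and caps their ends, had 100 and 136 CPM in hypostome, 391 CPM at 0 h, 456 CPM at 4 h and 19.0 CPM at 12 h. Cofilin Sc4wPfr_165.g10018, which takes old filaments apart, had 263 and 243 CPM in hypostome, 470 CPM at 0 h, 338 CPM at 4 h and 56.9 CPM at 12 h. The actin-depolymerizing factor MSTRG.6269, a protein of the cofilin family, ran the other way, with 371 and 243 CPM in hypostome, 153 CPM at 0 h, 164 CPM at 4 h and 56.9 CPM at 12 h. Both filament-severing entries named first were higher at 0 and 4 h than in hypostome, and the depolymerizing factor was lower there. Over all barcodes the depolymerizing factor had 202 and 121 CPM in hypostome, 149 CPM at 0 h and 160 CPM at 4 h, and the tissues overlapped. Cofilin then had 307 and 370 CPM, 479 CPM and 339 CPM, with overlap at 4 h.

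The Arp2/3 complex, which starts filament branches, had a count in all 11 entries. They summed to 927 and 1039 CPM in hypostome, 1282 CPM at 0 h, 996 CPM at 4 h and 341 CPM at 12 h, so 4 h lay between the hypostome libraries. The subunit 1A entry MSTRG.7042 stood at 340 and 370 CPM in hypostome, 298 CPM at 0 h, 242 CPM at 4 h and 75.9 CPM at 12 h. A second subunit 1A entry, Sc4wPfr_197.g11020, had 116 and 173 CPM in hypostome, 274 CPM at 0 h, 174 CPM at 4 h and 114 CPM at 12 h. Subunit 4, MSTRG.10090, had 185 and 192 CPM in hypostome, 298 CPM at 0 h, 247 CPM at 4 h and 37.9 CPM at 12 h. The subunit 1A entries had different orders of libraries in the used barcodes. Over all barcodes Sc4wPfr_197.g11020 had 320 and 392 CPM in hypostome, 282 CPM at 0 h and 175 CPM at 4 h, and MSTRG.7042 had 356, 343, 296 and 239 CPM, so that both were higher in hypostome.

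Cross-linkers, which bind filaments to each other, differed little among the 4 deeper libraries, at 510 and 463 CPM in hypostome, 546 CPM at 0 h and 556 CPM at 4 h, with 209 CPM at 12 h. Filamin A Sc4wPfr_207.g3921 was at 193 and 192 CPM in hypostome, 208 CPM at 0 h, 215 CPM at 4 h and 37.9 CPM at 12 h. Filamin MSTRG.12336 was at 131 and 140 CPM in hypostome, 140 CPM at 0 h, 144 CPM at 4 h and 19.0 CPM at 12 h. Alpha-actinin Sc4wPfr_618.g14865, which anchors filaments in muscle and at junctions, was at 61.8 and 60.8 CPM in hypostome, 88.5 CPM at 0 h, 112 CPM at 4 h and 75.9 CPM at 12 h. These 2 filamins were nearly level across hypostome, 0 h and 4 h, and 2 sparser ones, named after their values were seen, were not. Filamin MSTRG.11820 had 54.1 and 23.4 CPM in hypostome against 9.09 CPM at 0 h and 11.2 CPM at 4 h, and Sc4wPfr_555.g27164 had 7.73 CPM and no count against 26.5 and 24.3 CPM.

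Titin, troponin and tropomyosin entries had low summed levels. The titin-like entry Sc4wPfr_290.1.g3107, named after the large elastic protein of the sarcomere, had 147 and 60.8 CPM in hypostome, 96.7 CPM at 0 h, 130 CPM at 4 h and no count at 12 h. The 10 entries named troponin, which in vertebrates gives striated muscle its calcium switch, summed to 30.9 and 60.8 CPM in hypostome, 80.2 CPM at 0 h and 56.0 CPM at 4 h. The 3 tropomyosins, which lie along the filament, summed to 46.4 and 46.8 CPM in hypostome, 73.6 CPM at 0 h and 61.0 CPM at 4 h. Neither troponin nor tropomyosin had a count at 12 h. The 6 kinase entries summed to 61.8 and 70.2 CPM in hypostome, on 8 and 15 counts, against 44.6 CPM at 0 h and 24.9 CPM at 4 h. Their exact intervals in hypostome, 26.7 to 122 and 39.3 to 116 CPM, overlapped that at 0 h, 33.5 to 58.2 CPM. Unconventional myosins, motors outside class II, were higher in hypostome than at 0 h and 4 h. The unconventional myosins summed to 193 and 192 CPM in hypostome, 64.5 CPM at 0 h, 95.9 CPM at 4 h and 75.9 CPM at 12 h. In hypostome most of that came from Sc4wPfr_739.g28828, named myosin IIIb-like, a class with a kinase domain joined to the motor, at 108 and 112 CPM in hypostome, 11.6 CPM at 0 h and 46.1 CPM at 4 h. In all, 55 members had fewer than 20 counts over the used barcodes of all libraries, 16 of them none, and 32 members were counted in all 5 libraries. The name rule also took in 1 actinoporin-like entry, named after a toxin, which had at most 9.96 CPM in any library.

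Hypostome was then compared with regenerating tissue by edgeR's quasi-likelihood test on summed counts, 2 libraries against 3, over all entries that passed its filter on low counts. Of the 39 members tested, 0 passed an adjusted p of 0.05, beside 0% of all 3052 entries, and DESeq2 also called 0 members but 100 entries in all. At an unadjusted p under 0.05, 2 members were higher in hypostome, beside 7.96% of all entries, and 1 was lower, beside 3.21%. The higher members were the heavy chain MSTRG.26293, with a log2 fold change of 1.68 ± 0.49 (SE; edgeR adjusted p = 0.308), and the myosin IIIb-like entry Sc4wPfr_739.g28828, at 1.97 ± 0.78 (edgeR adjusted p = 0.427). The lower member was the myophilin-like entry Sc4wPfr_73.g11543, at -2.90 ± 1.10 (edgeR adjusted p = 0.422). None of these 3 passed the adjustment. Their fold changes depended on the barcodes and libraries: with all barcodes they were 0.45, 1.10 and -1.29 in that order. Without the 4 h library the myosin IIIb-like entry stood at 3.43, and with 1 hypostome library left out the myophilin-like entry ranged from -4.16 to -2.41. Member fold changes had a median of -0.17 on the log2 scale against 0.00 over all entries, with 24 of 39 below 0. The time points count as replicates of regenerating tissue in this test, so differences between times enter its spread.

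Without the 12 h library, the shallowest, 3 of the 66 members tested passed an adjusted p of 0.05, and each was lower in hypostome. That is 4.55% of members, beside 1.21% of all 7682 entries lower and 1.91% higher, where 0 members were called. They were the myophilin-like entry Sc4wPfr_73.g11543 (log2 fold change -3.34 ± 0.49 SE, edgeR adjusted p = 0.0298), gelsolin Sc4wPfr_634.1.g17831 (-1.95 ± 0.34, adjusted p = 0.0345) and the myophilin-like entry Sc4wPfr_502.g33794 (-1.93 ± 0.39, adjusted p = 0.0458). In each, both hypostome libraries lay below both the 0 h and the 4 h library. At an unadjusted p under 0.05, 17 members were lower, beside 9.11% of all entries, and 8 were higher, beside 12.1%. The 17 included the main actin at -0.73 ± 0.23, cofilin at -0.79 ± 0.28 and the nonmuscle heavy chain Sc4wPfr_304.2.g12724 at -1.73 ± 0.39, which did not pass the adjustment. The 8 included MSTRG.26293 at 1.43 ± 0.38, the depolymerizing factor MSTRG.6269 at 0.80 ± 0.32 and the sparse actin Sc4wPfr_1007.g33079 at 3.29 ± 0.78, with edgeR adjusted p-values of 0.0864, 0.205 and 0.0647. The median over the 66 members was -0.36, against -0.05 over all entries.

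**Figure D2:**
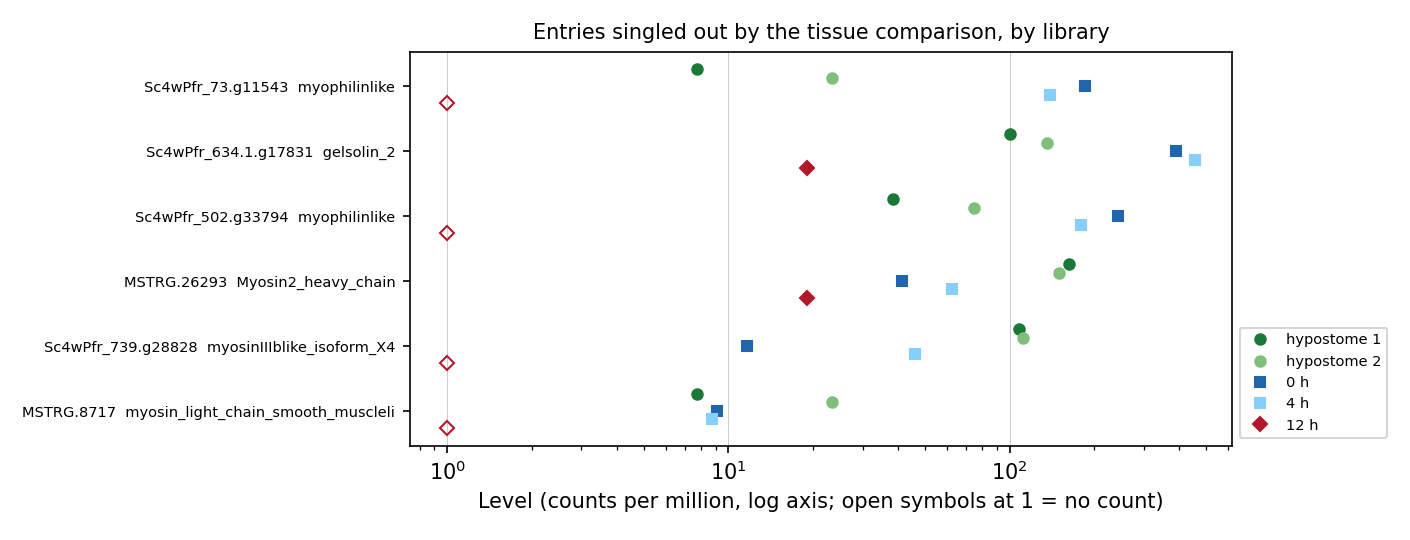
Level (CPM, log axis) per library of the members singled out by the tissue comparison, with open symbols at 1 marking no count. For the myophilin-like entries and gelsolin both hypostome symbols lie left of 0 h and 4 h, and for MSTRG.26293 and the myosin IIIb-like entry they lie right. The light chain MSTRG.8717, called with all barcodes, overlaps between tissues in the used barcodes plotted here.

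The choice of barcodes bore on these calls. With all deposited barcodes and 12 h left out, 2 of 76 members passed, 1 lower in hypostome, beside 0.446% of all 9414 entries, and 1 higher, beside 1.53%. The lower one was again Sc4wPfr_73.g11543, at -1.81 on the log2 scale (edgeR adjusted p = 0.0272). The higher one was the light chain MSTRG.8717, with 65.2 and 42.3 CPM in hypostome, 9.56 CPM at 0 h and 8.13 CPM at 4 h over all barcodes (2.52 ± 0.39 SE, adjusted p = 0.0215). Gelsolin and Sc4wPfr_502.g33794 stood at -0.82 and -0.91 there, with adjusted p-values of 0.157 and 0.229. The median over members was then -0.05, against -0.01 over all entries. In the unused barcodes of the hypostome libraries the main actin was at 8898 and 9793 CPM, against 5215 and 5832 CPM in the used ones.

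Markers of other cell types moved with the same choice. The nematocyte list, 22 entries that mark stinging cells, summed to 24947 and 15011 CPM in the used hypostome barcodes and to 4498 CPM at 0 h and 4925 CPM at 4 h. Over all barcodes it was 11225 and 5291 CPM in hypostome. The neuron list of 72 entries stood at 11249 and 3290 CPM in the used hypostome barcodes, against 711 CPM at 0 h and 770 CPM at 4 h. The ectodermal list of 25 entries stood at 5717 and 6539 CPM in the used hypostome barcodes and at 15831 and 17785 CPM over all of them, with 5465 CPM at 0 h. The endodermal list of 78 entries stood at 13976 and 14978 CPM in the used hypostome barcodes and at 20898 CPM at 0 h. Over all barcodes it stood at 23020 and 24401 CPM in hypostome and at 21562 CPM at 0 h, so the order turned. The part of these lists in the tissue differences was not tested.

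Each time point has 1 library, so ratios between times were computed without a test, for entries with at least 50 counts over both libraries, and a 2-fold ratio was counted. Between 0 h and 4 h most members stayed within 2-fold. Of 56 members compared, 3 were at least 2-fold lower at 4 h, beside 4.42% of all 5569 entries, and 3 were at least 2-fold higher, beside 3.99%. The median log2 ratio was -0.29 over members and -0.20 over all entries, and 41 members lay below 1. The main actin, with 11378 counts at 0 h and 12002 at 4 h in the deeper library, had a ratio of 0.795 (95% exact interval 0.774 to 0.815).

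The members lower at 4 h belong to different roles. The Arp2/3 subunit 3-like entry Sc4wPfr_106.g23562 had 28.1 CPM at 0 h and 10.6 CPM at 4 h, a ratio of 0.377 (0.197 to 0.693). The kinase MSTRG.11821 had a ratio of 0.455 (0.277 to 0.737), and the myophilin-like entry Sc4wPfr_989.g17940 a ratio of 0.463 (0.362 to 0.590). Among the members higher at 4 h, the myosin IIIb-like entry Sc4wPfr_739.g28828 had 14 counts at 0 h but 74 at 4 h, with a ratio of 3.98 (2.23 to 7.64). The light chain Sc4wPfr_624.g29791 had 11.6 CPM at 0 h and 33.0 CPM at 4 h, a ratio of 2.85 (1.56 to 5.57). The actin-binding LIM entry MSTRG.16798 had 20.7 CPM at 0 h and 57.9 CPM at 4 h, a ratio of 2.80 (1.79 to 4.55). The remaining 50 members did not reach 2-fold. Among them, the nonmuscle heavy chain MSTRG.11612 was at 0.583 (0.529 to 0.643) and the striated-muscle-like MSTRG.4804 at 0.855 (0.785 to 0.932). These intervals cover counting error only, and 1 barcode held 153 of the 990 counts of MSTRG.4804 at 0 h, so they do not set the 2 entries apart.

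Most abundant members were low at 12 h. Of 41 members compared, 21 were at least 2-fold lower at 12 h, which is 51.2% beside 22.7% of all 3086 entries, and 0 were at least 2-fold higher, beside 8.78%. The median log2 ratio was -1.16 over members and -0.23 over all entries, with counts under 3 raised to 3. With that floor an entry needed 138 counts at 0 h to be called lower, and the members compared had a median of 169 counts there, against 101 over all entries. Among entries with enough counts, a limit set after the data were seen, 21 of 22 members were lower, beside 700 of 1148 entries (61.0%), and the difference between these shares was not tested. With all barcodes, 42 of 52 members compared were lower and 6 higher, but no share over all entries is given for that setting, so these counts have no background. For the main actin, 81 counts at 12 h gave a ratio to 0 h of 0.163 (95% exact interval 0.130 to 0.203), which is 6.12-fold lower. The striated-muscle-like heavy chain MSTRG.4804 had 990 counts at 0 h and none at 12 h. With the floor of 3 counts per library that was 14.4-fold lower, and by the 95% exact interval at least 11.7-fold lower. Its counterpart MSTRG.11612, with 6 counts at 12 h, had a ratio of 0.146 (0.0536 to 0.320). Entries with 1 to 3 counts at 12 h were gelsolin Sc4wPfr_634.1.g17831 at 0.0485 (0.00123 to 0.272), Sc4wPfr_304.2.g12724 at 0.0684 (0.00827 to 0.248) and cofilin at 0.121 (0.0249 to 0.355), as ratios of CPM without the floor. Of the 41 members, 17 had no count at 12 h and 14 had 1 to 3. The myosin-2 heavy chain MSTRG.17918, with 21 counts at 12 h, 15 of them in 2 barcodes, stood at a ratio of 0.583 (0.359 to 0.897).

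**Figure D3:**
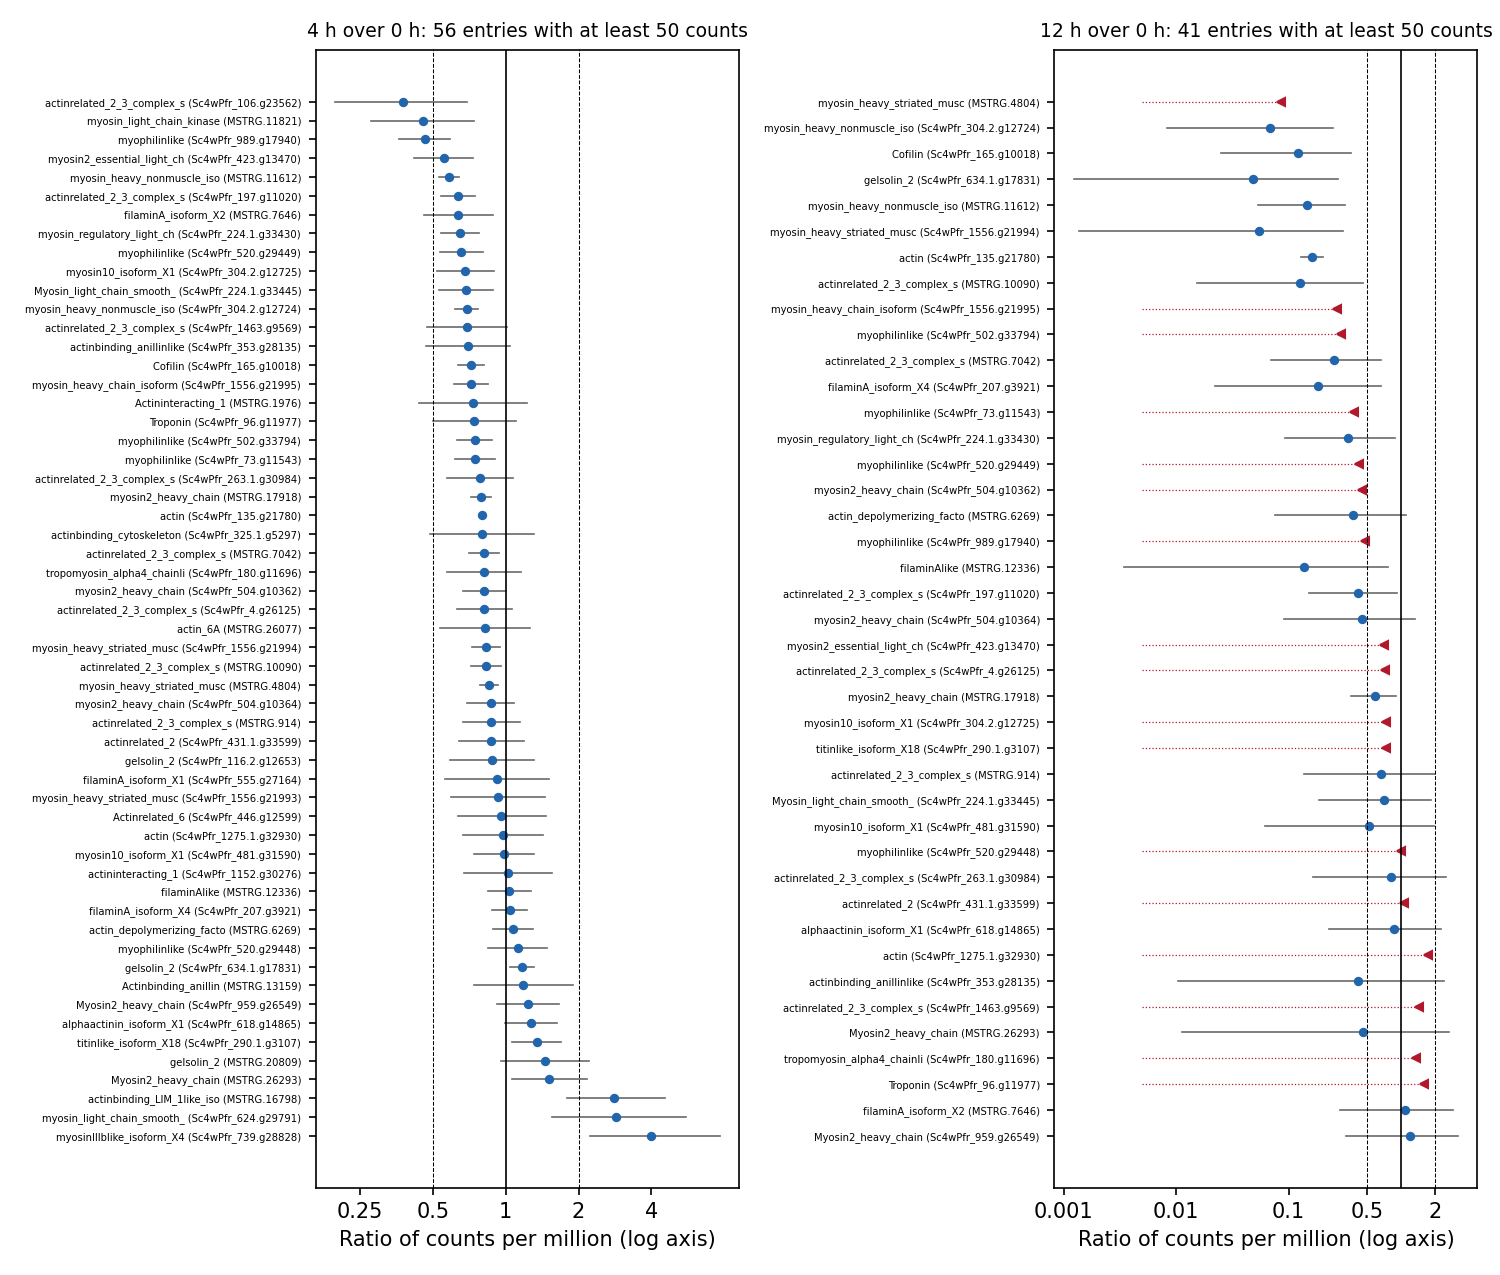
Ratio of CPM at 4 h over 0 h (left, 56 members) and at 12 h over 0 h (right, 41 members) on log axes, with 95% exact intervals as lines, dashed lines at 0.5 and 2, and left-pointing triangles at the upper bound where 12 h had no count. Most ratios on the left lie just below 1, and those on the right lie further below it.

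The low 12 h levels went with low levels of every cell type list but 1. At 12 h the nematocyte list summed to 493 CPM, the endodermal list to 1043 CPM and the ectodermal list to 247 CPM, against 4498, 20898 and 5465 CPM at 0 h. The list for dividing cells was at 721 CPM, against 542 CPM at 0 h. Only 64 of 4411 barcodes of that library were used, and the part of this in the members' levels was not tested.

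Of 212 further entries of the pathway, which regulate filaments or tie them to the membrane and to neighbouring cells, 39 were tested in the 5-library comparison and 0 passed an edgeR adjusted p of 0.05, with 2 at an unadjusted p under 0.05. Without 12 h, 2 of 82 rose in hypostome, beside 1.91% of all entries, and 0 fell, beside 1.21%. These were the adhesion proteins protocadherin MSTRG.17246 (log2 fold change 1.70, edgeR adjusted p = 0.0468) and protocadherin Fat 3 Sc4wPfr_388.1.g10256 (3.36, adjusted p = 0.0424). With all barcodes, Fat 3 passed again (edgeR adjusted p = 0.0443), MSTRG.17246 did not (1.33, adjusted p = 0.0791), and tropomodulin Sc4wPfr_920.g449, which caps the slow-growing filament end, was lower at -1.67 (adjusted p = 0.0373). At 4 h, 4 of 68 were at least 2-fold higher and 3 lower, near the 3.99% and 4.42% of all entries. One of the higher ones, talin MSTRG.20919, a link between integrin and actin, had 71 counts at 4 h, of which 65 fell in 1 barcode. A second talin, Sc4wPfr_635.g14748, had 58 counts in 36 barcodes at 4 h and 6 counts at 0 h, a ratio of 7.28 (3.15 to 20.7).

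At 12 h, 5 of 43 pathway entries were at least 2-fold higher and 8 lower, near the 8.78% and 22.7% of all entries. The higher ones were 4 proteins of the cortex under the membrane and 1 formin. Radixin MSTRG.19470, which ties filaments to membrane proteins, had 649 and 482 CPM in hypostome, 450 CPM at 0 h, 674 CPM at 4 h and 1442 CPM at 12 h, a ratio of 3.21 (2.49 to 4.08) over 0 h. The spectrins form a mesh under the membrane: the alpha chain Sc4wPfr_635.g14753 had 51.3 CPM at 0 h and 360 CPM at 12 h (ratio 7.03, 3.97 to 11.9), and the beta chain Sc4wPfr_11.g7393 had 26.5 and 379 CPM (14.3, 7.77 to 25.9). A dystrophin-like entry, MSTRG.14974, had a ratio of 3.75 (1.63 to 7.66), and the formin MSTRG.18868 one of 2.70 (0.947 to 6.29), an interval that includes 1. A second radixin entry, Sc4wPfr_582.g7494, was among the lower ones, at 0.465. So was calmodulin MSTRG.16269, the calcium sensor that activates myosin light chain kinase, with 1512 counts at 0 h and 2 at 12 h. The main actin, at 0.163, and these 4 cortical entries thus had intervals on opposite sides of 1 in the same pair of libraries.

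Members were spread widely over barcodes. At least 1 count of any member was found in all used barcodes of both hypostome libraries, in 99.7% of those at 0 h, in 99.4% at 4 h and, lowest, in 71.9% at 12 h. Thinned to 150 counts per barcode, the shares were 82.7% and 83.9% in hypostome. Of the thinned barcodes from 0 h, 93.4% held a member, as did 88.3% of those from 4 h and 31.2% of those from 12 h. The main actin alone was in 59.1% and 60.1% of thinned hypostome barcodes, in 75.9% of those from 0 h, 68.2% from 4 h and 15.6% from 12 h. A cell type that should lack actin is not known, so these shares have no background to set them against and are not read as shares of expressing cells.

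The main actin was counted in 96.9% of barcodes at 0 h, with 96.6% expected if its counts fell on barcodes in proportion to depth. At 4 h it was counted in 94.6%, with 95.7% expected. Since nearly every barcode was expected to hold it, this share cannot show whether its level was even. The ratio of observed to expected had a median of 0.927 over 41 members at 0 h and 0.857 over 49 at 4 h, against 0.887 over 2949 entries and 0.835 over 3394. At 0 h and 4 h, myophilin-like Sc4wPfr_73.g11543 was at 0.992 and 0.913, gelsolin Sc4wPfr_634.1.g17831 at 0.954 and 0.959, and cofilin at 0.977 and 0.885. By the median of this ratio, members were about as even over barcodes as other entries.

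**Figure D4:**
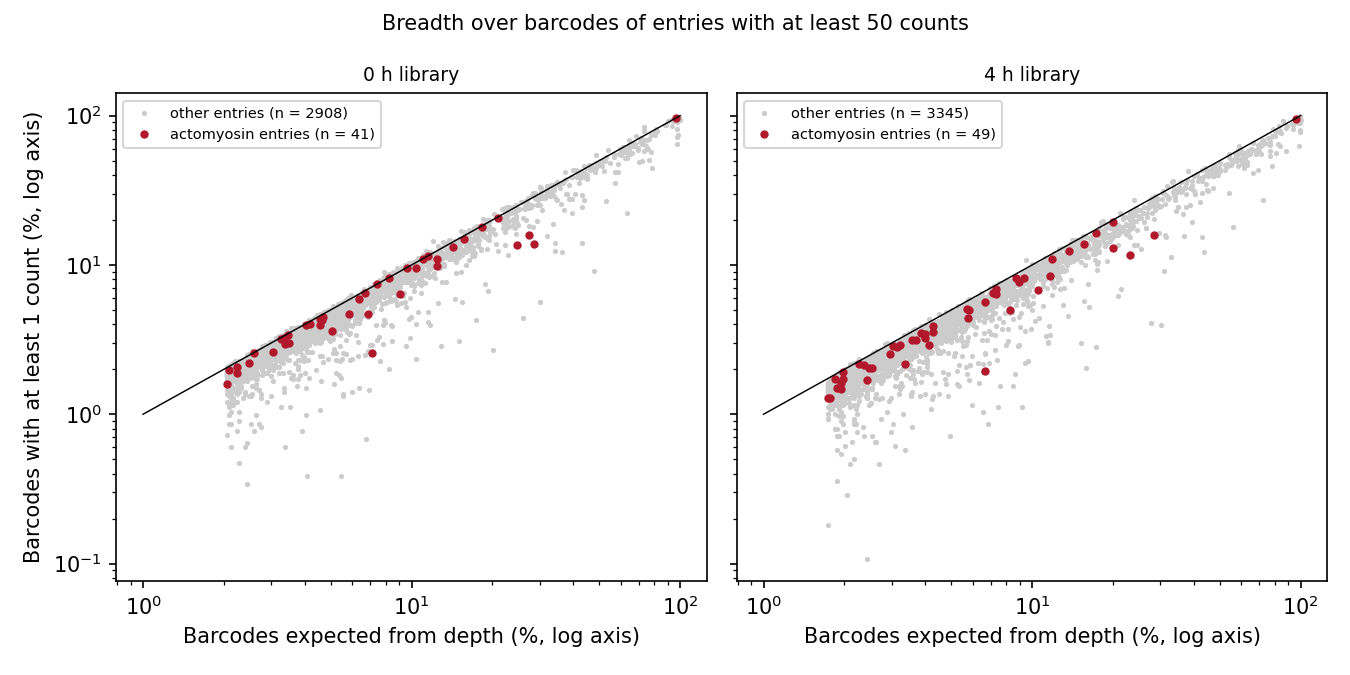
Share of used barcodes with at least 1 count against the share expected from barcode depth, on log axes, for entries with at least 50 counts at 0 h (left) and 4 h (right). Red points are members and the line marks equal shares. Most members lie near the line and a few heavy chains lie well below it.

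The exceptions were 3 heavy chains, below the lowest 5% of all entries in at least 1 of these libraries. Sc4wPfr_504.g10362 had 192 counts at 0 h in 60 barcodes, 0.361 of the number expected, and 208 counts at 4 h in 54 barcodes, 0.291 of it. MSTRG.4804 was in 13.8% of barcodes at 0 h, where 28.6% were expected (0.483), and in 15.8% at 4 h (0.555). MSTRG.17918 was at 0.547 and 0.506. For MSTRG.4804, 21 barcodes with at least 5 counts held 52.1% of its counts at 0 h, and 33 barcodes held 42.1% at 4 h. In hypostome 2, 12 barcodes held 80.1% of its counts, and in hypostome 1, 5 barcodes held 62.5%. The nonmuscle heavy chain Sc4wPfr_304.2.g12724, in contrast, was at 0.990 at 0 h and 0.949 at 4 h.

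The barcodes with at least 5 counts of MSTRG.4804 were deeper, at a median of 4726 counts at 0 h against 361 in the others, as a count minimum favours. They also held more of the other members: 23334 against 17021 CPM at 0 h, 20231 against 13688 CPM at 4 h, 20117 against 11113 CPM in hypostome 1 and 12434 against 11341 CPM in hypostome 2. Their gland marker level was lower in each of these libraries, at 1708 against 8794 CPM at 0 h and 1301 against 5643 CPM at 4 h. The ectodermal list was higher in them in hypostome, at 34859 against 4173 CPM and 11564 against 5374 CPM, and lower at 0 h, at 4551 against 5569 CPM. The nematocyte list was higher in them at 0 h, at 9134 against 3968 CPM, and at 4 h, at 5477 against 4879 CPM. In hypostome it was lower, at 23956 against 25000 CPM and 149 against 18456 CPM. The endodermal list was lower at 0 h, at 10938 against 22037 CPM, and at 4 h, at 12344 against 19610 CPM. In hypostome it was at 13514 against 14001 CPM and 17184 against 14467 CPM. These barcodes were chosen by the heavy chain's own counts, so the values describe them and test nothing.

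Whether the members belong to epitheliomuscular cells could not be checked in most barcodes. A barcode was to be assigned when it held at least 3 counts of 1 marker list and fewer of every other, but 3 or more counts of several lists were held by 96 of 110 barcodes in hypostome 1, 154 of 168 in hypostome 2, 1872 of 2332 in the 0 h library and 2141 of 2782 in the 4 h library. The endodermal list alone gave at least 10 such barcodes in any library. The members summed to 18815 CPM (95% exact interval 18163 to 19485) in 434 endodermal barcodes at 0 h, to 14996 CPM (14537 to 15465) in 627 at 4 h, and to 9717 CPM (7348 to 12600) in 11 in hypostome 2. At 0 h and 4 h these are close to the levels over all used barcodes, 18488 and 14895 CPM. The ectodermal list, the other epithelial layer, marked at most 6 barcodes alone in a library. Among all used barcodes, assigned or not, 149 at 0 h and 171 at 4 h held 2 to 4 endodermal counts, near the limit.

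A stricter class, chosen after these results were seen, took barcodes in which the nematocyte list made up at least 5% of counts. There were 11 in each hypostome library, 13 at 0 h and 18 at 4 h. Nematocytes are no muscle cells, and the members were lower in these barcodes in all 4 libraries: 5424 against 14177 CPM in hypostome 1 (ratio 0.383, 95% exact interval 0.319 to 0.455), 5142 against 14077 CPM in hypostome 2 (0.365, 0.306 to 0.432), 13290 against 18631 CPM at 0 h (0.713, 0.647 to 0.785) and 6295 against 15163 CPM at 4 h (0.415, 0.370 to 0.465). Intervals of ratios between barcode classes, here and below, cover counting error only. They leave out the spread between barcodes and are too narrow for a verdict on the classes. The markers themselves took 11.9%, 9.91%, 8.63% and 9.77% of counts in these barcodes. The barcodes were deeper than the rest, with a median of 1546 against 512 counts in hypostome 1 and 1593 against 361 at 0 h, and the part of depth was not tested. Between 7 and 24 barcodes per library had 2.5 to 10% of counts from the list, near the limit. The ratios moved with that limit: at 2.5% they were 0.435, 0.537, 0.746 and 0.633 in hypostome 1, hypostome 2, 0 h and 4 h, and at 10% they were 0.310 in hypostome 1 and 0.202 at 4 h, the libraries with enough barcodes.

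The calponin family and the main actin were lower in nematocyte-rich barcodes in each of the 4 libraries, and the heavy chains in all but 0 h. The main actin was at 2363 against 5925 CPM, 2445 against 6339 CPM, 5784 against 9506 CPM and 2972 against 7614 CPM in hypostome 1, hypostome 2, 0 h and 4 h. Calponin family ratios were 0.459 (0.118 to 1.28) in hypostome 1, 0.398 (0.126 to 0.966) in hypostome 2, 0.325 (0.148 to 0.620) at 0 h and 0.137 (0.0371 to 0.351) at 4 h, on 4 to 9 counts in the rich barcodes. Class II heavy chains were at ratios of 0.461, 0.188 and 0.428 in hypostome 1, hypostome 2 and 4 h, but at 1.10 (0.924 to 1.30) at 0 h. Arp2/3 ratios lay between 0.249 and 0.489 in the 4 libraries. Turnover ratios were 0.315 in hypostome 1, 0.604 at 0 h and 0.628 at 4 h, but 0.969 (0.565 to 1.57) in hypostome 2, where 683 and 705 CPM hardly differed, and 1.23 there at the 2.5% limit.

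The same 5% limit on the endodermal list, an epithelial layer, took 6 and 7 hypostome barcodes, 25 at 0 h and 12 at 4 h. The members were at ratios of 1.18 (0.964 to 1.43) and 1.14 (0.955 to 1.34) to the other barcodes in hypostome, 1.08 (0.975 to 1.19) at 0 h and 1.25 (1.11 to 1.41) at 4 h, and the 4 h interval alone lay off 1. Class II heavy chains were at 1.03 (0.669 to 1.52) and 1.49 (1.09 to 2.00) in hypostome, but lower at 0 h, at 0.669 (0.502 to 0.875), and at 4 h, at 0.386 (0.232 to 0.603). Within them the striated-muscle-like and isoform A entries stood at 0.106, 1.24, 0.447 and 0.210 in hypostome 1, hypostome 2, 0 h and 4 h. The calponin family was at 0.910 (0.507 to 1.51) at 0 h and 3.79 (2.61 to 5.33) at 4 h, so the roles did not move together in these barcodes. A 2.5% limit took 34 and 56 hypostome barcodes, 1151 at 0 h and 1022 at 4 h. In that order the member ratios were 1.75, 1.41, 1.10 and 1.07. Each interval lay above 1, for counting error alone and without the spread between barcodes. Calponin family ratios were then 4.41, 3.38, 1.52 and 1.61, and those of class II heavy chains 1.66, 1.45, 0.809 and 0.793.

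**Figure D5:**
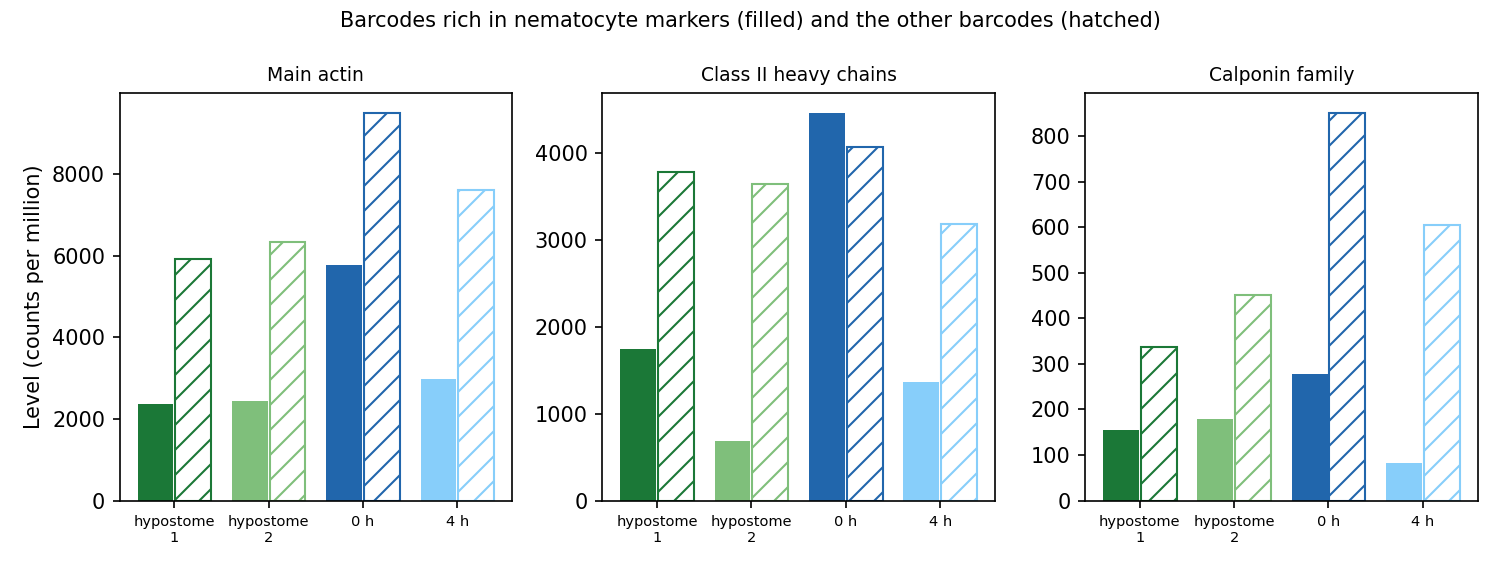
Level (CPM) of the main actin, the class II heavy chains and the calponin family in barcodes with at least 5% of counts from the nematocyte list (filled bars) and in the other barcodes (hatched bars), per library. The filled bar is the shorter of each pair except for the heavy chains at 0 h.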

How the data were processed

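Values are unscaled counts, deposited by the authors as integers for each entry in each cell barcode; reads were assigned with kallisto 0.46.1, per the submitters' processing notes. Whether counts are molecules or reads, the strand of counting, the genome build and the choice of barcodes are not given in the sources used here. Members and lists were chosen with earlier results of these data known. Marker and pathway rows whose names belong to another gene were removed after the row names were seen.

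Barcodes with at least 200 detected entries were kept (5456 of 13993), no doublet caller was run, and counts were summed per library. Tests used edgeR 4.0.16 (R 4.3.3: TMM, filterByExpr, quasi-likelihood, Benjamini-Hochberg over all entries tested), with DESeq2 1.42.0 as an alternative. Counts were also simulated with a single common spread and no difference between time points. There, 175 of 189 entries changed 4-fold were recovered among 2889, with 5 false calls. The real time points differ, so this does not give the share that would be recovered in these data. Ratios between times carry exact conditional binomial intervals, and shares exact Clopper-Pearson intervals; counts under 3 were raised to 3. Other alternatives were library totals, no filter, other barcode sets, MSTRG.22171 kept, leaving out each library, other count and fold limits, and other marker minimums.

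Members named in the text are the 25 highest by mean CPM, those with an unadjusted p under 0.05 with all libraries or an adjusted p under 0.05 without 12 h, and up to 5 members each way at each time whose interval excludes 1; any others were chosen after their values were seen.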

Additional observations from a re-analysis of the deposited data

How the results depend on the processing

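No member passed with DESeq2, library totals, no filter, all barcodes, barcodes with at least 500 entries or MSTRG.22171 kept; leaving out 1 library gave 0 to 3 called members, and all barcodes without 12 h, a setting chosen after seeing the data, gave 2. Over all entries the count was 0 in the main test, 100 with DESeq2, 10 without a filter, 186 with all barcodes and no 12 h, and 0 to 240 when leaving out 1 library. Fold changes of members that did not pass could change sign: MSTRG.11612 stood at 0.47 with all libraries and at -0.06 without 12 h. No paired analysis was possible because the labels name no pairing of hypostome and regenerating libraries.

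At 4 h the 6 members past 2-fold became 2 at a minimum of 100 counts, 0 at a 4-fold threshold and 12 with MSTRG.22171 kept, of which 9 were lower. At 12 h the 21 became 10 at 4-fold, 48 with all barcodes, where 6 were higher and 42 lower, and 9 with barcodes of at least 500 entries. Shares over all entries are not given for these settings, so the counts have no background.

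The summed hypostome level of 12672 CPM became 11866 with MSTRG.22171 kept, 16699 with all barcodes, 11677 with deeper barcodes, 12111 with TMM, 7020 without the actin role and 7149 without the main actin. The share of 0 h barcodes with a member count, 93.4% after thinning, was 99.7% unthinned and 81.9% in deeper barcodes. With marker minimums of 2 and 5 the endodermal level at 0 h was 18591 and 18571 CPM. The cause of these shifts was not tested. Depth limits 12 h most, where 17 of 41 members had no count and 14 had 1 to 3.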

Other observations

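Some members were found mainly in the barcodes left out at 12 h, those with fewer than 200 detected entries. The gelsolin entry MSTRG.20809 had 2 counts in the used barcodes of that library and 237 in the unused ones, spread so that all 239 counts fell in 222 barcodes with at most 3 in any. That is 289 CPM in the unused barcodes, against 16.9 and 23.3 CPM in those of the hypostome libraries, 13.3 CPM at 0 h and 8.68 CPM at 4 h. The main actin stood at 609 CPM in the same barcodes. The heavy chains Sc4wPfr_96.g11988 and MSTRG.9679 had 103 and 79 counts there, at 125 and 96.2 CPM, and at most 8.68 CPM in the unused barcodes of any other library. The myosin IIIa entry Sc4wPfr_739.g28826 had 53 counts there, at 64.5 CPM, and none in the unused barcodes of the other 4 libraries. These entries were chosen after their values were seen, among members with at least 50 counts in the unused 12 h barcodes.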
